A study of Mus musculus with 8 samples.

Results

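Described here are 39 genes whose RNA was read in liver label-retaining cells (LLRCs). In the remaining bile duct cells they had 3 or fewer reads per library. They were chosen by their counts: a gene was taken where each of the 4 LLRC libraries held more than 3 reads and each of the 4 non-LRC libraries held 3 or fewer, and 15 genes were set aside by name. The count file holds 46603 genes, of which 27591 had at least 1 read; 51 of these met both limits (0.185%), and 12 of the 51 were among the genes set aside. The mirrored limits, more than 3 reads in each non-LRC library and 3 or fewer in each LLRC library, were met by 17 rows (0.0616%). Because the choice used the LLRC and non-LRC counts themselves, the difference between the groups is given for these genes as a description and is not tested.

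Bile ducts are lined by cholangiocytes, epithelial cells that modify bile and carry the surface protein EpCAM. A cell that divides rarely keeps a chromatin label that dividing cells dilute, so label retention is used to find slowly cycling cells. The study pulsed bigenic mice (R26rtTA het/H2B-EGFP het, mixed C57BL/6 and CBA background, both sexes) with doxycycline from birth to postnatal day 5 through the nursing mother, which switched on a histone H2B-EGFP fusion, and sorted the liver cells at 8 weeks of age. The reverse tetracycline transactivator was driven from the ubiquitously active Rosa26 locus, so the label marked no single lineage, and the H2B-EGFP transgene can be active without doxycycline in hematopoietic cells. Each of 4 mice, JV602, JV621, JV624 and JV6314, gave an LLRC library (EGFP+EpCAM+CD45-) and a non-LRC library (EGFP-EpCAM+CD45-), so both groups carried the same alleles and the same doxycycline pulse, and n = 4 mice throughout.

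The libraries differed in depth and in how completely they covered the expressed genes, and both bear on genes chosen for low counts. LLRC libraries held 7860021 to 9851819 reads on genes and non-LRC libraries 4670132 to 8056103. Among rows with over 20 reads in each of the other 7 libraries, the non-LRC library of JV621 had 3 or fewer reads in 727 of 8523 (8.53%) and that of JV6314 in 205 of 7664 (2.67%), against 0 to 0.153% in the other 6 libraries. The cholangiocyte genes were read throughout, for example *Epcam* with 3737 to 6042 reads in the LLRC libraries and 2421 to 4219 in the non-LRC libraries. *Ptprc*, which encodes CD45, had 5, 34, 14 and 59 reads in the LLRC libraries and 0, 0, 0 and 7 in the non-LRC libraries of the same mice. Over a list of 20 leukocyte genes 4 were tested and 0 called, 9 were at 0 in every LLRC library and 6 in every non-LRC library, and the summed level ran from 21.4 to 111 CPM (counts scaled to library size with edgeR's TMM factors) in LLRCs and from 23.9 to 583 CPM in non-LRC cells. In this list *Fcer1g* (14, 2, 3 and 3 reads against 15, 20, 53 and 112) and *Lyz2* (1, 2, 0 and 0 against 5, 3, 24 and 11) went the other way from *Ptprc*, without overlap in CPM. Both highest sums of the list were carried by *S100a8*, a neutrophil gene, at 85.4 and 567 CPM in the LLRC and non-LRC libraries of JV621. The other leukocyte genes summed to 21.4 to 81.5 CPM in LLRCs and 16.2 to 58.8 CPM in non-LRC cells. Among these was *Cybb*, with 263, 120, 113 and 651 reads against 106, 1, 98 and 169. The summed level of 10 endothelial genes was 23.8 to 49.8 CPM in LLRCs and 135 to 685 CPM in non-LRC cells, without overlap; 7 of them were tested and 0 called. The summed level of 10 hepatocyte genes was 2901 to 3404 CPM in LLRCs and 2146 to 6820 CPM in non-LRC cells (median log2 fold change -1.71, 0 of 10 called), and that of 10 stellate or fibroblast genes was 2460 to 9913 CPM in LLRCs and 3502 to 9063 CPM in non-LRC cells; 6 of these were tested and 0 called, 4 with a negative and 2 with a positive log2 fold change (*Reln*, 0.32, and *Rgs5*, 0.57). Pancreatic acinar genes summed to 1028 CPM in the non-LRC library of JV6314 and to 2.24 to 22.7 CPM in the other libraries. The part of depth, coverage and these other cells in the results was not tested.

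Of the 39 genes 18 were protein-coding, 11 were processed pseudogenes, 3 were antisense RNAs and 3 were lincRNAs, and 1 each was a snRNA, a processed transcript, a bidirectional promoter lncRNA and an unverified transcript of the annotation class TEC. All were read at low levels, and in such sorted pools fewer cells that make an RNA and less RNA per cell cannot be told apart. Together they took 501 to 601 reads of each LLRC library and 17 to 54 of each non-LRC library. Their summed level was 53.5, 59.0, 88.1 and 62.1 CPM in LLRCs, in the mouse order above (65.7 ± 15.3, mean ± SD, n = 4) and 6.73, 3.53, 6.42 and 5.26 CPM in the non-LRC libraries (5.48 ± 1.45, n = 4). A single gene averaged 0.501 to 6.71 CPM in LLRCs, with a median of 1.36 CPM, while the median of the 13605 genes that passed edgeR's expression filter was 14.3 CPM. That filter was passed by 5 of the 39, *Mkrn3*, *Srgap3*, *Fut1*, *6430590A07Rik* and *Aldh1l2*, each only through its LLRC counts. The plot of counts by gene and library shows the values of 38 of them.

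**Figure D1:**
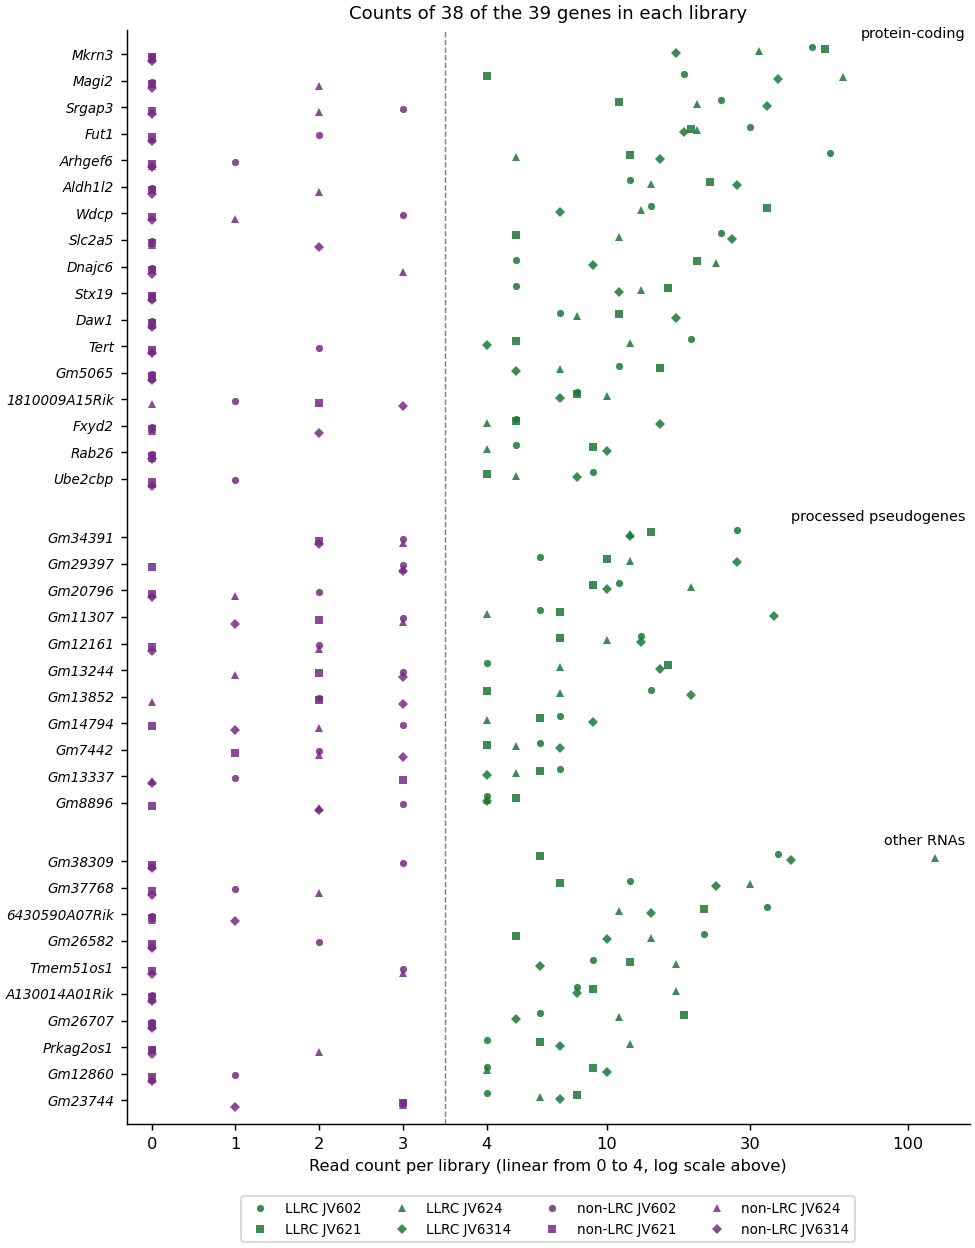
Read counts of 38 of the 39 genes in each library (horizontal axis, linear from 0 to 4 and logarithmic above), with LLRC libraries in green, non-LRC libraries in purple and 1 symbol per mouse. The dashed line is the limit of 3 reads used to choose the genes, so the green points lie to its right and the purple points to its left by construction, and the spread of the green points within a row is the spread between mice.

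In the sentences that follow, 4 counts are always given in the mouse order JV602, JV621, JV624 and JV6314. *Mkrn3* (chr7:62417593-62420139, minus strand, GRCm38), an imprinted RING-finger ubiquitin ligase expressed from the paternal allele and known for its role in the timing of puberty, had the highest level per kilobase of exon of the 18 coding genes in LLRCs, 1.71 CPM per kilobase. It had 48, 53, 32 and 17 reads in LLRCs and 0 in all non-LRC libraries. With each non-LRC library set at a floor of 3 reads, the mean LLRC level of *Mkrn3* was 8.50-fold the mean floor. Such ratios, given below for other genes at 0, hold no error of the LLRC counts. The genes were chosen by these counts, so the ratios are a description and set no tested minimum. The counts were of the same order in the 4 mice (4.36 ± 1.81 CPM), and no non-LRC library came near them. Of its neighbours in the imprinted interval, *Magel2* was at 0 in all 8 libraries, and *Peg12*, too low to be tested, had 8, 5, 0 and 0 reads against 2, 0, 14 and 19. For the others edgeR's quasi-likelihood test called 0 of the 4 that could be tested (*Ndn*, *Snrpn*, *Ube3a* and *Atp10a*), with log2 fold changes from -1.57 to 0.28 and adjusted p = 1.0 for each.

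A scaffold gene, a pair of small GTPase regulators and a small GTPase are described together here for convenience, with no test of a shared theme. *Magi2*, a PDZ-domain scaffold of cell junctions, had 18, 4, 61 and 37 reads in LLRCs against 0, 0, 2 and 0 in non-LRC cells. *Srgap3*, a GTPase-activating protein of Slit-Robo signalling, had 24, 11, 20 and 34 reads against 3, 0, 2 and 0. The coefficient of variation between mice was 98.0% for *Magi2*, where JV624 held 58.6% of the summed LLRC level, and 40.4% for *Srgap3* (2.58 ± 1.04 CPM). *Arhgef6*, an exchange factor for Rac and Cdc42, had 55, 12, 5 and 15 reads against 1, 0, 0 and 0, so JV602 alone held 58.2% of its LLRC level. *Rab26*, a Rab GTPase of secretory vesicles, had 5, 9, 4 and 10 reads and was at 0 in every non-LRC library (1.58-fold the mean floor). Its LLRC levels in JV602 and JV624 were 0.482 and 0.586 CPM. The floors of the non-LRC libraries of JV621 and JV6314 were 0.623 and 0.584 CPM, so no minimum fold is set. Exons of *Rab26* and *Traf7* overlap on the same strand over 267 bases, 9.36% of the exonic length of *Rab26*, and *Traf7* was read in all 8 libraries.

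*Dnajc6* encodes auxilin, which helps to strip clathrin from vesicles, and had 5, 20, 23 and 9 reads in LLRCs against 0, 0, 3 and 0 in non-LRC cells. *Stx19*, a syntaxin of the SNARE family, had 5, 16, 13 and 11 reads in LLRCs and 0 in all non-LRC libraries (2.68-fold the mean floor). The gene body of *Stx19* lies within that of *Arl13b*, on the other strand and without a shared exonic base. *Arl13b* had 121, 277, 205 and 192 reads in LLRCs against 100, 0, 146 and 28 in non-LRC cells, so the 0 of *Stx19* in the non-LRC library of JV621 stood beside a 0 of its host gene, whereas JV602 and JV624 read the host at 100 and 146.

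*Fut1*, the fucosyltransferase that makes the H antigen, had 30, 19, 20 and 18 reads in LLRCs against 2, 0, 0 and 0 in non-LRC cells. Among the 39 genes it varied least between mice in LLRCs (2.51 ± 0.47 CPM, with a ratio of highest to lowest of 1.47). *Aldh1l2*, the mitochondrial 10-formyltetrahydrofolate dehydrogenase, had 12, 22, 14 and 27 reads against 0, 0, 2 and 0. Of its exonic bases 14.1% (1056 bases) are also exonic in *D10Wsu102e* on the other strand, which had 215, 75, 51 and 142 reads against 82, 1, 56 and 38. *Slc2a5*, the fructose transporter GLUT5, had 24, 5, 11 and 26 reads against 0, 0, 0 and 2. *Fxyd2*, the gamma subunit of the sodium pump, had 5, 5, 4 and 15 reads against 0, 0, 0 and 2. For *Slc2a5* and *Fxyd2* the 2 non-LRC reads were all in JV6314, the shallowest library.

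*Tert*, the reverse transcriptase of telomerase, had 19, 5, 12 and 4 reads in LLRCs against 2, 0, 0 and 0 in non-LRC cells. Its lowest LLRC count was 1 read above the limit, and per kilobase of exon it was the lowest of the coding genes, at 0.202 CPM per kilobase. *Daw1*, which takes part in the assembly of outer dynein arms of motile cilia, had 7, 11, 8 and 17 reads in LLRCs against 0 in non-LRC cells (2.45-fold the mean floor).

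Of the remaining coding genes, *Wdcp* had 14, 34, 13 and 7 reads in LLRCs against 3, 0, 1 and 0. *Gm5065* had 11, 15, 7 and 5 and was at 0 in every non-LRC library (2.15-fold the mean floor). The E3 ubiquitin ligase gene *Ube2cbp* had 9, 4, 5 and 8 against 1, 0, 0 and 0. *1810009A15Rik*, with 8, 8, 10 and 7 against 1, 2, 0 and 3, had a lowest LLRC count of 7 and a highest non-LRC count of 3. Of the exonic length of *1810009A15Rik* 50.9% (735 bases) is shared with *Lbhd1* on the same strand, and a transcript of *Lbhd1* matches 86.2% of it at 100% identity. *Lbhd1* had 89, 45, 11 and 36 reads in LLRCs against 20, 0, 6 and 0 in non-LRC cells, higher in LLRCs in 4 of 4 mice, by 2.42 ± 1.18 (SE) on the log2 scale (edgeR quasi-likelihood, adjusted p = 1.0). Reads of the shared bases cannot be told apart between these genes. The study counted with HTSeq in union mode, which assigns a read on exons of more than 1 gene to none of them.

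Among the RNAs that encode no protein, *Gm38309* (TEC) took the most LLRC reads of all 39 genes, 207, and also had the widest spread: 37, 6, 123 and 41 reads in LLRCs against 3, 0, 0 and 0 in non-LRC cells, a 25.5-fold ratio of highest to lowest LLRC level. The processed transcript *6430590A07Rik* had 34, 21, 11 and 14 reads against 0, 0, 0 and 1. A transcript of the coding gene *Mfsd8* matches 83.9% of *6430590A07Rik* at 96.2% identity, so reads of the matching bases can be hard to assign. The antisense RNA *Gm37768*, which lies across the gene body of *Acbd3* on the other strand, had 12, 7, 30 and 23 reads against 1, 0, 2 and 0. Reads were counted without regard to strand, so an antisense RNA and its partner cannot be told apart where their exons overlap. The exons of *Gm37768* and *Acbd3* do not overlap. A read of unspliced *Acbd3* RNA on an exon of *Gm37768* would still be counted for *Gm37768*, and this was not tested. *Acbd3* itself was read in all libraries (345, 552, 394 and 795 against 100, 213, 234 and 210) and was higher in LLRCs in 4 of 4 mice, with a log2 fold change of 0.86 ± 0.46 (SE) and an adjusted p of 1.0 (edgeR quasi-likelihood).

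The lincRNA *Gm26582* had 21, 5, 14 and 10 reads against 2, 0, 0 and 0, but 65.4% of its exonic bases (2050 bases) are also exonic in *G3bp2* on the other strand, which had 816 to 1040 reads in LLRCs against 281 to 1077 in non-LRC cells. *A130014A01Rik*, annotated as a bidirectional promoter RNA 100 bases from *Zdhhc7*, had 8, 9, 17 and 8 reads and was at 0 in all non-LRC libraries (2.54-fold the mean floor). *Zdhhc7* had 76, 50, 31 and 23 reads against 46, 0, 94 and 41 and overlapped between the groups (log2 -0.49 ± 1.03 (SE), edgeR adjusted p = 1.0). *Gm26707* was also at 0 in non-LRC cells, with 6, 18, 11 and 5 reads in LLRCs (2.37-fold the mean floor). *Tmem51os1* (9, 12, 17 and 6 against 3, 0, 3 and 0), *Prkag2os1* (4, 6, 12 and 7 against 0, 0, 2 and 0) and *Gm12860* (4, 9, 4 and 10 against 1, 0, 0 and 0) were read at no more than 17 reads in any LLRC library. The first pair share 6.82% and 14.3% of their exonic bases with *Tmem51* and *Prkag2* on the other strand, and *Gm26707* shares 6.66% with *Cyp2s1*; all 3 coding genes overlapped between the groups. The snRNA *Gm23744*, with 4, 8, 6 and 7 reads against 3, 3, 3 and 1, lay close to the limit on both sides.

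A processed pseudogene is a reverse-transcribed copy of a messenger RNA. Pseudogenes were 28.2% of the 39 genes and 13.9% of all rows with a read, and 22.0% of the 5657 rows whose summed count lay in the same range of 24 to 210 reads. The share of pseudogenes moved with the setting: it was 12.8% at a limit of 1 read, 11 of 44 at a limit of 5 and 21.6% at a limit of 10, 14.3% after thinning and 18.2% after scaling, 11.7% to 31.2% with each library left out (lowest without the non-LRC library of JV602, highest without that of JV621), and 0 of 17 under the mirrored limits. Each of the 11 pseudogenes matched the transcript of a coding gene, at 89.7% to 100% identity, and that gene was read far more than the copy: the pseudogene count was 0.375% to 17.6% of the count of its coding match in LLRCs. How reads that match several places were treated is not given in the sources used here, and it bears on what the counts of these copies mean. Other genes that match a copy at 95% identity or more over 80% of its length, the coding match included where it does, numbered 8 for *Gm8896*, 3 for *Gm13244* and 2 for *Gm13337*. The stretches below set 4 copies beside their coding match: a pair of copies with no difference in the aligned bases, and a pair that differs. They are 60-base stretches of the coding sequence, for the copies that differ those with most differences and so not typical of the whole copy (GENCODE M21 transcripts, GRCm38), and capitals mark the bases that differ within a pair.

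Gm12161 (chr11:45280895-45280954, minus strand): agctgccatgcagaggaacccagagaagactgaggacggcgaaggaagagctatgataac
Tyw1: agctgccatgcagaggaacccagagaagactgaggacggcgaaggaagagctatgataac
Gm29397 (chr9:92976226-92976285, plus strand): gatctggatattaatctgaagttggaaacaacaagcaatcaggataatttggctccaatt
Itga6: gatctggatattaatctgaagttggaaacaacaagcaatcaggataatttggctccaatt
Gm34391 (chr6:135171347-135171406, minus strand): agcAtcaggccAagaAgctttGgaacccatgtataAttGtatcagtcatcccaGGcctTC
Khdc4: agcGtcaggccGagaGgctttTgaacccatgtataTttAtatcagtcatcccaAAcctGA
Gm13337 (chr2:22068476-22068535, plus strand): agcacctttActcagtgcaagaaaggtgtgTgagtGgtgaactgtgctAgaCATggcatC
Phgdh: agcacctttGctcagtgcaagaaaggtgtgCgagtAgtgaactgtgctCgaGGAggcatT

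*Gm12161* was identical to *Tyw1*, an enzyme that modifies transfer RNA, over all of its 361 bases, and *Gm29397* to *Itga6*, the integrin alpha-6 chain, over 326 bases (97.9% of its length), so the reads of these pairs cannot be told apart over those bases. *Gm12161* had 13, 7, 10 and 13 reads in LLRCs against 2, 0, 2 and 0 in non-LRC cells. *Tyw1* had 267, 164, 96 and 124 reads against 100, 2, 58 and 31, and after scaling each LLRC library lay above each non-LRC library (18.2 ± 5.64 against 7.00 ± 5.11 CPM, n = 4), as was the case for 2.18% of all genes tested. Its log2 fold change was 1.37 ± 0.76 (SE; edgeR adjusted p = 1.0). *Itga6* overlapped between the groups, with 159, 211, 269 and 610 reads against 357, 135, 177 and 175, while *Gm29397* had 6, 10, 12 and 27 against 3, 0, 3 and 3.

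Of the pairs printed, *Gm34391* and *Khdc4* differed most (10 of the 60 bases, and 64 of the 667 aligned), and the pair was read at 27, 14, 12 and 12 against 3, 2, 3 and 2 for the copy and at 553, 813, 335 and 396 against 539, 789, 307 and 297 for the coding gene, an RNA-binding KH-domain protein. The log2 fold change of *Khdc4* was -0.48 ± 0.45 (SE; edgeR adjusted p = 1.0), and its groups overlapped, with 164 CPM in the non-LRC library of JV621 against 48.0 to 67.2 CPM in the other non-LRC libraries. *Gm13337* differed from *Phgdh*, the first enzyme of serine synthesis, at 8 of the 60 bases (61 of the 1599 aligned), and had 7, 6, 5 and 4 reads against 1, 3, 0 and 0. It had the highest share of its coding match, 17.6% of the LLRC reads of *Phgdh*, which was itself low at 44, 38, 18 and 25 reads against 32, 10, 23 and 0. The other copies matched *Prr14l* (*Gm20796*, 11, 9, 19 and 10 against 2, 0, 1 and 0), *Rpl5* (*Gm11307*, 6, 7, 4 and 36 against 3, 2, 3 and 1), *Ppp2r5a* (*Gm13244*, 4, 16, 7 and 15 against 3, 2, 1 and 3), *Nck1* (*Gm13852*, 14, 4, 7 and 19 against 2, 2, 0 and 3), *Atp5c1* (*Gm14794*, 7, 6, 4 and 9 against 3, 0, 2 and 1), *Tomm20* (*Gm7442*, 6, 4, 5 and 7 against 2, 1, 2 and 3) and *Anapc5* (*Gm8896*). In these copies other than *Gm20796* the lowest LLRC count was 4 and the highest non-LRC count 3.

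All 11 coding matches could be tested, and edgeR's quasi-likelihood test called 0 of them, as it called 0 of all 13605 genes (0%). The study, with edgeR 3.2.4 and the same adjusted p threshold, did report called genes, *Mkrn3* among those higher in LLRCs. The reason for this difference was not tested. At an unadjusted p below 0.05 edgeR's quasi-likelihood test had 0 of the 11 and 702 of all genes (5.16%), of which 217 were higher in LLRCs (1.6%) and 485 lower (3.56%). By limma voom the balance was the opposite, with 576 higher and 315 lower at the same unadjusted threshold. By DESeq2 221 genes were called, of which 49 were higher in LLRCs. The log2 fold changes of the 11 matches ran from -0.48 to 1.37 with a median of 0.32, beside a median of -0.01 over all genes tested, and 8 of 11 were positive. The coding matches other than *Tyw1* overlapped between the groups.

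**Figure D2:**
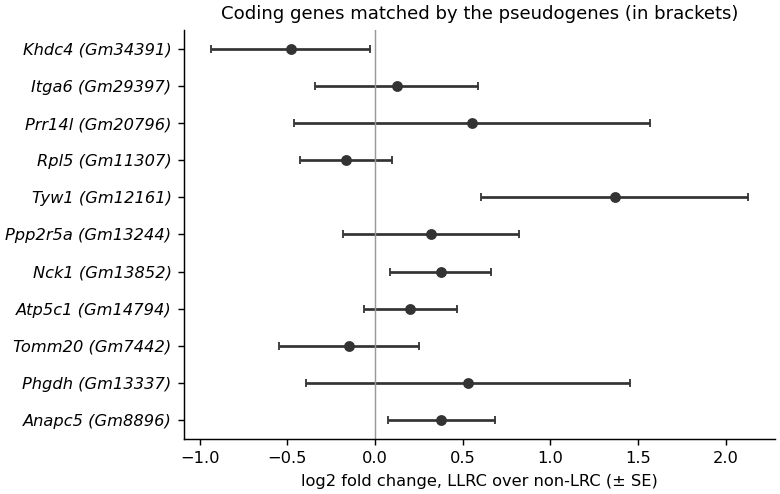
Log2 fold change of LLRC over non-LRC (horizontal axis, points with bars of 1 SE, n = 4 libraries per group, edgeR) for the 11 coding genes matched by the processed pseudogenes, whose names stand in brackets. The points run from -0.48 for *Khdc4* to 1.37 for *Tyw1*, and none was called.

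Of the 39 genes 10 (25.6%) shared at least 1 exonic base with another annotated gene, which is close to the 26.9% among all rows with a read, and 5 shared 10% or more (12.8%, against 12.2%). Non-coding genes were 53.8% (exact 95% interval 37.2 to 69.9%), against 37.2% of all rows with a read and 44.3% of the rows in the same range of summed counts. Of 11 genes in the count table that share exon bases with one of the 39, 9 were tested and 0 called by edgeR, and in all 11 the groups overlapped. Of the nearest coding genes outside each of the 39, 20 were tested and 0 called.

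Families and partners of the coding genes were read to see whether the rest of each pathway followed. The list holds 50 genes for 14 of the 39, of which 49 were in the table and 39 were tested. edgeR called 0 of these, the median log2 fold change was 0.02, beside -0.01 over all genes tested, and 20 were positive. At an unadjusted p below 0.05 there was 1 higher and 2 lower, and in all 49 the groups overlapped.

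The 8 tested genes of telomerase and of shelterin, the complex that caps telomeres, had log2 fold changes from -0.63 to 0.30, and the CPM values of all 8 overlapped between the groups. *Dkc1*, the pseudouridine synthase that stabilizes the telomerase RNA, had 709 to 854 reads in LLRCs against 263 to 1160 in non-LRC cells (log2 0.02 ± 0.33 (SE), edgeR adjusted p = 1.0). *Terc*, the RNA template, had 1 read in the LLRC libraries and 2 in the non-LRC libraries, in JV624 in both cases. The shelterin gene *Terf1* had 637 to 1005 reads against 136 to 826 (log2 0.30 ± 0.45). For fructose, *Slc2a1*, the glucose transporter GLUT1, was higher in LLRCs in 4 of 4 mice (log2 0.98 ± 0.41) and *Khk*, the ketohexokinase that starts fructose breakdown, was lower in 3 of 4 (log2 -1.05 ± 0.43), with edgeR adjusted p of 0.92 and 0.91. *Slc2a2*, the main hepatic glucose transporter, had 3728 to 8918 reads against 1603 to 8838 (log2 -0.07 ± 0.50).

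Of the folate enzymes, *Aldh1l1*, the cytosolic counterpart of *Aldh1l2*, had 224, 194, 107 and 104 reads against 127, 88, 942 and 196 (log2 -1.62 ± 0.72 (SE), edgeR adjusted p = 0.96), and its highest value was that of the non-LRC library of JV624, which also had the highest summed level of hepatocyte genes, 6820 CPM; their part in this difference was not tested. *Fut2*, the fucosyltransferase of secretor status, had 1, 34, 1 and 11 reads against 1, 0, 11 and 34. *Mkrn1*, a relative of *Mkrn3*, had 329 to 560 reads against 129 to 328 (log2 0.53 ± 0.40). The dynein arm gene *Dnah5* and the assembly factor *Dnaaf2* had log2 fold changes of 0.96 ± 0.90 and 1.08 ± 0.61 (adjusted p = 1.0 for both in edgeR), and *Foxj1*, the transcription factor of motile cilia, had 1 to 6 reads in LLRCs against 0 to 3 in non-LRC cells.

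**Figure D3:**
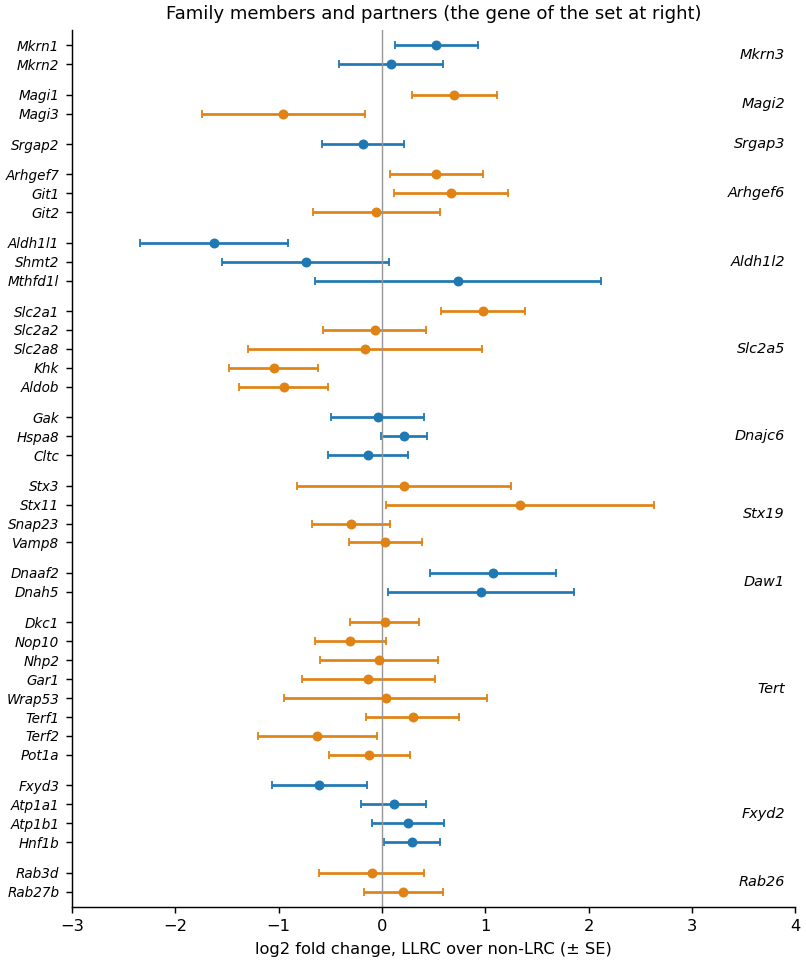
Log2 fold change of LLRC over non-LRC (horizontal axis, points with bars of 1 SE, n = 4 libraries per group, edgeR) for the 39 tested family members and partners (left), grouped by the member gene they belong to (right), with colours alternating between groups. Values run from -1.62 for *Aldh1l1* to 1.33 for *Stx11*, and none was called.

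RefSeq gives 19 promoters for 15 of the 39 genes. They were examined over the 250 bases before the start site, on both strands, for letters of common promoter elements. The GC box GGGCGG was found in 11 of 19 (57.9%) and in 32.7% of all 32851 promoters of the table, and the median GC content was 57.2% against 52.4%. By gene, 10 of the 15 had a GC box and 3 a CCAAT box. The windows of *Daw1* overlap over most of their length, so its matches are counted more than once. The CCAAT box was found in 21.1% against 33.8%, TATAAA in 10.5% against 12.4% and the E-box CACGTG in 5.26% against 6.02%, and TGACGTCA in none of 19 against 1.55%. Windows are printed for *Mkrn3*, the coding gene with the highest level per kilobase, for *Srgap3*, which passed the expression filter, and for *Tert*; each overlaps no annotated exon, and capitals mark matches to any of these motifs (GRCm38.p6).

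Mkrn3 (chr7:62420154-62420403, minus strand): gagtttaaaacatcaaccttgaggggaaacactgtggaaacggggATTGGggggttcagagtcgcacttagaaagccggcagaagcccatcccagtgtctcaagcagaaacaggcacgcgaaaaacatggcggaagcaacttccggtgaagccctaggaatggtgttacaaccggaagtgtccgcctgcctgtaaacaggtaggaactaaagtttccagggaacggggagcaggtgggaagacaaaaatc
Srgap3 (chr6:112947267-112947516, minus strand): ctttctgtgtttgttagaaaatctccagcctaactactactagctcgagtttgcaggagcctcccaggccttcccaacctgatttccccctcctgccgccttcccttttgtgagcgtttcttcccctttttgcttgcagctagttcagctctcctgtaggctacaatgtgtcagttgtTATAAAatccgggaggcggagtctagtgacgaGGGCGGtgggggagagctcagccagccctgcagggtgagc
Tert (chr13:73626661-73626910, plus strand): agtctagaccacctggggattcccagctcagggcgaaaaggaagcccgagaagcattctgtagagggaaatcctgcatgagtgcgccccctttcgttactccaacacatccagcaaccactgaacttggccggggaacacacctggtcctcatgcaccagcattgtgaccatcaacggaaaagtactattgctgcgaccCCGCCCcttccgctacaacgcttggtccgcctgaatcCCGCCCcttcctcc

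The *Tert* window held the GC box at 2 positions near the start site, both on the strand opposite to the gene. That of *Srgap3* held a TATAAA and a GC box. In the *Mkrn3* window a CCAAT box on the opposite strand was the only match. These are matches of letters, and nothing was measured at these promoters.

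The 39 genes differed among themselves in how far the mice agreed. The median coefficient of variation over the 4 LLRC libraries was 49.9%, beside 31.5% over all genes tested and 58.3% over the 6981 rows in the same range of LLRC level. Those 6981 rows need not have over 3 reads in each LLRC library, as the 39 must. The lower value of the 39 therefore cannot be told apart from the choice. The highest to lowest ratio in LLRCs was over 5 in 9 genes and under 2 in 9 genes. JV624 had the highest level of 14 genes, JV6314 of 13, JV621 of 8 and JV602 of 4. In non-LRC libraries, 7 genes were at 0 in all 4 (*Mkrn3*, *Stx19*, *Daw1*, *Gm5065*, *Rab26*, *A130014A01Rik* and *Gm26707*), 17 had 1 to 3 reads in all and 15 had more. The summed non-LRC counts of the pseudogenes had a median of 7, against 2 for the coding genes. Per kilobase of exon the pseudogenes were higher than the coding genes, with medians of 1.67 and 0.377 CPM per kilobase in LLRCs. Per gene the order was reversed, with medians of 1.24 and 1.82 CPM. The read limit takes no account of length, so short genes that meet it have a high level per kilobase.

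Many of the 39 stood next to the limit. For 23 of them the lowest LLRC count was 4 or the highest non-LRC count was 3, and for 8 of these both held, among them *Gm8896* (4, 5, 4 and 4 against 3, 0, 2 and 2). Just outside were 30 rows with 1 LLRC library at 3 and 21 rows with 1 non-LRC library at 4. *Kif2c*, a kinesin of the mitotic spindle, had 3, 6, 7 and 14 reads and 0 in all non-LRC libraries, and *Mag*, the myelin-associated glycoprotein, had 8, 6, 3 and 6 and again 0. *Racgap1*, a regulator of cytokinesis, had 13, 32, 4 and 27 reads against 0, 0, 4 and 0, and *Six4*, a homeobox factor, 58, 4, 4 and 74 against 4, 0, 0 and 0. These 4 were named after their values were seen. Genes on either side of the limit thus differed by as little as 1 read in 1 library.

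The number and identity of the genes changed with the limit and with thinning. Of the 39 genes 11 also met a limit of 1 read, 16 a limit of 5 and 6 a limit of 10, and each limit brought others, giving 48, 45 and 37 genes. When every library was thinned, in 1 random draw, to the 4670132 reads of the smallest, 14 genes met the limit of 3, 8 of them from the 39. With the genes set aside by name put back, 51 genes met the limits at full depth against 17 for the mirrored limits, 26 against 23 after thinning, and 34 against 24 when counts were scaled to the smallest total without a random draw. Both settings match total counts only: the libraries still differed in coverage, with 14234 rows read in the non-LRC library of JV621 and 18488 to 20430 in the LLRC libraries. Among 3732 rows with over 3 reads in each LLRC library and a summed LLRC count in the range of the 39 (17 to 207), the non-LRC library of JV621 had 3 or fewer reads in 42.9%, JV6314 in 29.2%, JV602 in 9.73% and JV624 in 9.43%.

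**Figure D4:**
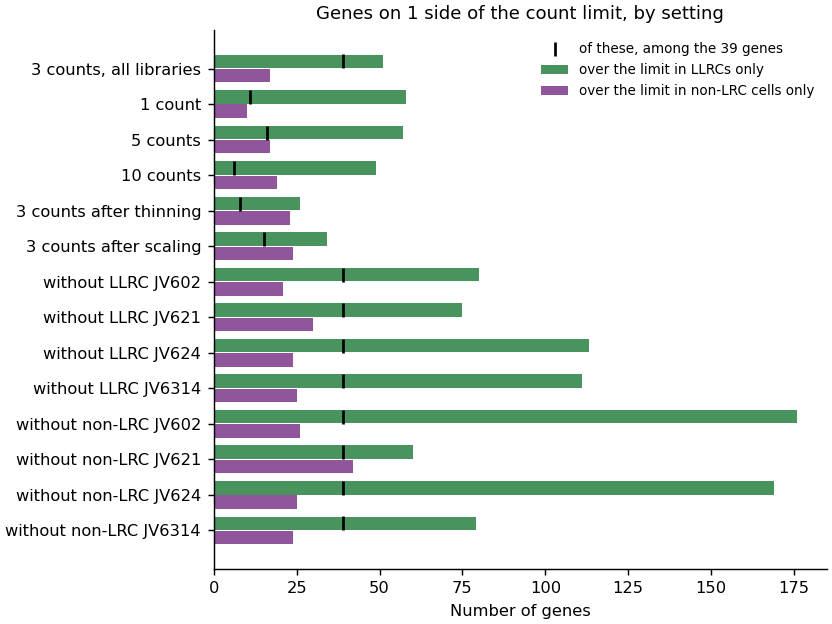
Number of genes (horizontal axis) over the limit in LLRCs only (green, the genes set aside by name included) and over it in non-LRC cells only (purple), for 4 limits, for counts thinned or scaled to the smallest library and with each library left out. The black mark gives how many of the green genes are among the 39; after thinning to equal total counts the green bar is at 26 genes and the purple bar at 23, and after scaling they are at 34 and 24.

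To read the pattern in a mouse that the choice had not used, the limits were applied to 3 mice and the genes so chosen were read in the fourth. The genes that then meet both limits in the fourth mouse are always the 39, so the share varies only with the number chosen. With JV621 left out, 77 genes were chosen, of which the 39 were 50.6%. They were 28.3% of 138 genes for JV6314, 18.1% of 216 for JV602 and 14.3% of 272 for JV624, a mean of 27.8 ± 16.3% (SD over 4 mice). The 2 mice with the highest shares were those whose non-LRC libraries missed most well-read rows; the part of coverage in this was not tested. With the genes set aside by name put back, the shares were 57.3%, 34.0%, 22.3% and 17.9% in the same order. Under the mirrored limits they were 28.3% for JV621 and 47.2 to 50.0% for the other mice.

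Direction alone was also read in the mouse left out. Genes at 0 in both libraries of that mouse were set apart. For JV621, 53 genes were higher and 15 lower, for JV6314 66 were higher and 41 lower, for JV602 98 were higher and 105 lower, and for JV624 126 were higher and 126 lower. The genes higher in LLRCs were thus 77.9% of those that differed for JV621, 61.7% for JV6314, 48.3% for JV602 and 50.0% for JV624, against 64.8%, 55.2%, 52.2% and 47.4% of all rows that differed. The 4 sets of genes share libraries and are not independent of each other.

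**Figure D5:**
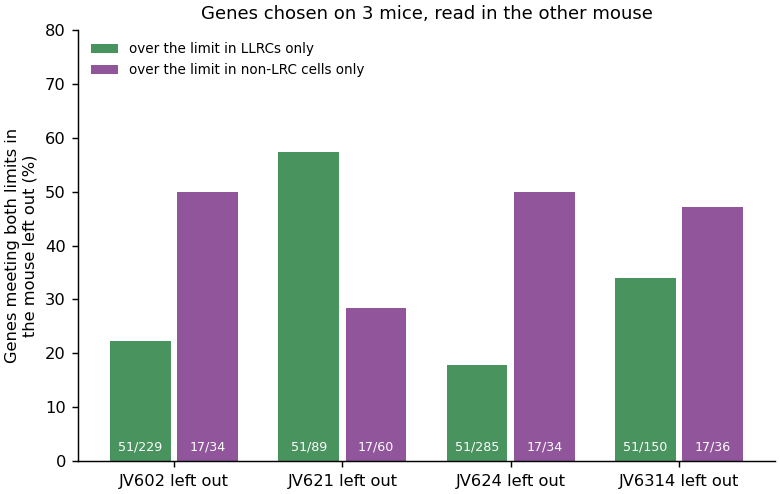
Share of genes (vertical axis, percent) that met both limits in the mouse left out, for genes chosen on the other 3 mice as over the limit in LLRCs only (green) or in non-LRC cells only (purple). The numbers in the bars are genes meeting the limits over genes chosen, and the first is the same for each mouse by construction; the genes set aside by name are included, and the green share is 57.3% for JV621 and 17.9 to 34.0% for the other mice.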

How the data were processed

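RNA was sequenced from LLRCs and non-LRC cells sorted from 4 mice (8 libraries), and a table of gene counts was deposited by the authors. Per the study's methods, bead depletion of CD45+ cells preceded FACS, and reads on exons were counted with HTSeq in union mode without strand on GRCm38.p4. The aligner is not given in the sources used here. The values are whole-number counts per Ensembl gene, deposited without normalization. A second deposited file with fold changes and p-values of the authors' own comparison was not used.

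Total counts ranged from 4670132 to 9851819 per library, so 3 counts were worth 0.289 to 0.623 CPM on TMM-scaled library sizes. All 46603 rows were used, of which 46091 were named through GENCODE M21. The 39 genes, the gene lists and the relatives were chosen with earlier results of these data known; the relatives were listed before their own values were read. Levels are CPM on TMM-scaled library sizes. Differences of other genes were tested with edgeR 4.0.16 (quasi-likelihood, filterByExpr, group only, Benjamini-Hochberg adjustment at 0.05) over all genes, after tests on simulated data. DESeq2 1.42.0, limma 3.58.1, other scalings, no filter, each library left out and a replicate block were alternatives. A count of 0 was bounded at 3 counts per library. Intervals cover counting error only. Transcripts were compared with blastn 2.17.0+.

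Both libraries of a mouse come from 1 animal, which pairs them; the correlation of their deviations from the group mean was 0.003 to 0.171. Each library is a separate sort, and p-values measure the spread between these 4 mice. Of the 39 genes 1 is counted but not reported here; the other 17 coding and 21 other genes are named, with relatives, genes at their loci, and rows 1 count outside the limit.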

Additional observations from a re-analysis of the deposited data

Results flagged for a closer look

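In groups of 4 libraries, 64 sets of values were examined for a library that stood far from the other 3, and 6 were found; chance sets apart about 1 group in 20. Of the 38 genes reported singly 4 were among them. *Gm20796* (2.78 CPM against 1.06 to 1.11) and *A130014A01Rik* (2.49 against 0.772 to 1.06) were set apart by JV624. *Gm11307* (3.98 CPM against 0.579 to 0.824) and *Fxyd2* (1.66 against 0.482 to 0.588) were set apart by JV6314. In the non-LRC libraries, JV621 stood apart in the summed level of the leukocyte list (583 CPM against 23.9 to 58.8, of which 567 CPM was *S100a8*) and in *Khdc4*, the coding match of *Gm34391* (164 CPM against 48.0 to 67.2).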

How the results depend on the processing

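The number of genes that met the limits moved with depth: 14 after thinning to the smallest library and 22 after scaling counts to its total, a setting chosen after seeing the data. Leaving out 1 library loosens the limits by construction and gave 48 to 163 genes. Among LLRC libraries the number was 68 without JV602, 63 without JV621, 100 without JV624 and 99 without JV6314. Among non-LRC libraries it was 163 without JV602, 157 without JV624 and 67 without JV6314. Limits of 1, 5 and 10 counts gave 48, 45 and 37 genes. Over all genes, edgeR called 11 without a filter (1 higher, 10 lower), 0 to 6 with each library left out (6 without the non-LRC library of JV602) and 0 with the other scalings, limma voom called 0 and DESeq2 called 221. With the mouse as a replicate block edgeR called 0 genes and 0 leukocyte markers, and it changed no other call. DESeq2 called 1 leukocyte marker; the other settings called 0, and leaving out each library gave 0 to 0. The share of genes with exonic overlap was 12.8% when at least 10% of bases had to be shared. The cause of these changes was not tested beyond what each setting does. The non-coding share with other limits, thinning or scaling (43.2 to 57.1%) moved by less than its error. So did the summed LLRC level with other scalings (64.8 and 63.4 CPM, against 65.7 ± 15.3 CPM, mean ± SD). With each LLRC library left out that level was 58.2 to 69.7 CPM. Leaving out 1 library cannot move the mean by a full SD, so this range does not test stability. The mean share read again in the mouse left out was 28.2 to 31.5% with other limits. Its numerator is fixed at each limit by construction and its sets share libraries, so its stability was not tested either. With each library left out, a setting added after seeing the data, the non-coding share was 36.2 to 61.8%; the lowest value, without the non-LRC library of JV602, lay below the interval of the main share. Counts of 0 to 3 reads limit every statement on the non-LRC libraries.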
